A study of Mus musculus with 12 samples.

Results

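The genes of 2 stress peptide systems, corticotropin-releasing hormone (CRH) and pituitary adenylate cyclase-activating polypeptide (PACAP), were followed in neurons of the basolateral amygdala of mice that received footshocks or met a female mouse. The systems are taken here as 6 genes, Crh, Crhr1, Crhr2, Crhbp, Adcyap1 and Adcyap1r1. They were found by their symbol in the deposited annotation, which gave 11 probe sets of 45037, and 6 genes of 20752 with a probe set of a single symbol. The brightest probe set, by the mean over the 6 arrays, stood for its gene, and the other probe sets are given beside it. Shock and female mice alike carried a FLAG-tagged PABPC1, a protein bound to poly(A) tails, driven by the fos promoter, so that the recovered RNA is weighted towards cells in which that promoter was active. RNA was recovered by immunoprecipitation of the tag and measured on Affymetrix Mouse 430 2.0 arrays, 3 for shock and 3 for female. Each sample was a pool of 2 mice while a group is described as 3 mice, so arrays of a group may share mice. The number of arrays, 3 in each group, limits the precision of every value below. No untreated group is among the arrays, so a rise after shock and a fall after meeting a female cannot be told apart. The sources used here do not give the strain, age or sex of the mice or the time of sampling.

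CRH is best known as the hypothalamic peptide that starts the pituitary and adrenal response to stress. It is also made by neurons elsewhere in the forebrain, the amygdala included, where it acts on the receptors encoded by Crhr1 and Crhr2. The secreted protein encoded by Crhbp binds CRH and keeps it from its receptors. Adcyap1 encodes the precursor of PACAP, a peptide of the secretin family, and Adcyap1r1 encodes its selective receptor. These receptors are G protein-coupled and raise cyclic AMP, which activates protein kinase A and, through the transcription factor CREB, genes with a cyclic AMP response element in their promoters. Both peptides are studied for their part in fear and anxiety.

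Promoter sequence was held by the RefSeq table (build GRCm38.p6) for 5 of the 6 genes, all but Crh. The 250 bases before the annotated start are shown for Adcyap1 and Adcyap1r1, which each had a probe set that differed between the groups, and for Crhbp, which carries the same element core as Adcyap1. Capitals mark the core of the cyclic AMP response element, TGACG or its reverse complement CGTCA. For Adcyap1 the first of 2 annotated starts is used.
Adcyap1, chr17:93198767-93199016, plus strand: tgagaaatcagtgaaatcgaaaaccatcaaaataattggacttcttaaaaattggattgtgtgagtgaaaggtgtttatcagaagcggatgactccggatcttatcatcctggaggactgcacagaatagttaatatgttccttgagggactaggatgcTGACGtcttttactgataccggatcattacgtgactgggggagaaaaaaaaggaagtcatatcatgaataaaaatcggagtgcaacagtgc
Crhbp, chr13:95444832-95445081, minus strand: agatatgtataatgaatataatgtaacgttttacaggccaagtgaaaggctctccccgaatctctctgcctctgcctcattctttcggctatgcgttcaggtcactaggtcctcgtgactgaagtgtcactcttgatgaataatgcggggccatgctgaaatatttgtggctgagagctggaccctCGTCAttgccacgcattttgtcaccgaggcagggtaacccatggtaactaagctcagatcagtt
Adcyap1r1, chr6:55451728-55451977, plus strand: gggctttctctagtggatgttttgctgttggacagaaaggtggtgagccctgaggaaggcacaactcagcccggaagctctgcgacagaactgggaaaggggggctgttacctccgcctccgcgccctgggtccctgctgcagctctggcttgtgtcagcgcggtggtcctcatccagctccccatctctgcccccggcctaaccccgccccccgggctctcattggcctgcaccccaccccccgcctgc
The core lies 91 bases before the start of Adcyap1 and 64 bases before that of Crhbp, and it was not found in the windows of Adcyap1r1, Crhr1 and Crhr2. It occurs in 17.8% of the 32851 promoter windows of this length. The full element TGACGTCA, in 1.55% of windows, and the AP-1 site TGANTCA, in 6.75%, were searched on both strands and found in none of the 5 genes. A match is a description of the letters, and no binding was measured here.

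Across the series, Pearson correlations between arrays, over probe sets, were 0.991 to 0.993 in shock, 0.974 to 0.994 in female and 0.936 to 0.985 across groups. Female replicate 2 stood apart from its group, at 0.974 and 0.978 with the other arrays of it. Markers of projection neurons were present, with all 11 of those on the array above the filter on dim probe sets. So were all 12 markers of central amygdala neurons, all 15 of interneurons, all 10 of oligodendrocytes and all 10 of astrocytes. Of the 27022 probe sets tested (mean RMA value above 6.31, the 40th percentile), 20.8% differed between shock and female at a limma adjusted p under 0.05, 9.31% higher in shock and 11.5% higher in female. In a bulk sample, fewer cells of a type and less RNA per cell cannot be told apart.

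Crh was higher in shock than in female, except when the 5' to 3' signal of the arrays, described with Adcyap1r1, was a covariate. Its difference was then -0.024 (adjusted p = 0.978). That signal does not overlap between the groups, so the fit separates group and signal poorly. Array positions are printed as deposited, and the sources used here name no build for them. Its single probe set (1457984_at, chromosome 3, positions 19693400 to 19693672, minus strand) had RMA values of 9.45, 9.19 and 9.15 in shock replicates 1 to 3, and 8.72, 8.11 and 8.95 in female replicates 1 to 3 (log2). The groups did not overlap, and female replicate 2 was the lowest. The difference was 0.67 (log2), a 1.59-fold higher level in shock (standard error 0.19, limma adjusted p = 0.0384). The MAS5 intensities of the same arrays were 1488, 1338 and 1469 in shock and 958, 842 and 986 in female. They did not overlap either, and on log2(value + 16) the difference was 0.62 (adjusted p = 0.0548). Without female replicate 2 the RMA difference was 0.43 and the call held (adjusted p = 0.0286), whereas the call was lost without any 1 shock array, with adjusted p of 0.154, 0.0891 and 0.0889 for shock replicates 1, 2 and 3. In the authors' deposited RMA table the fold of Crh was -1.41 (negative where shock is higher) with an FDR of 0.253, and the smallest FDR of any probe set in that table was 0.0810.

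Crhbp, which encodes the CRH-binding protein, had the higher mean in shock but did not pass the test. The RMA values of its probe set (1436127_at, chromosome 13, positions 95431368 to 95432098, minus strand) were 9.16, 9.56 and 9.70 in shock and 9.13, 8.26 and 9.38 in female. The groups overlapped, since female replicate 3 lay above shock replicate 1, and female replicate 2 was again the lowest. The difference was 0.55 (standard error 0.26, 95% interval -0.02 to 1.12, limma adjusted p = 0.137). It was 0.22 without female replicate 2 (adjusted p = 0.311). The MAS5 intensities were 1086, 1056 and 1130 in shock and 756, 435 and 927 in female, with no overlap and a difference of 0.68 (adjusted p = 0.162).

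Adcyap1, the PACAP precursor gene, was read by 2 probe sets on chromosome 17, plus strand, and both had the higher mean in shock on RMA values. The one that represents the gene (1423427_at, positions 93199020 to 93205807) had RMA values of 8.27, 7.81 and 7.93 in shock and 7.51, 7.65 and 7.87 in female. Its groups overlapped at 1 array each, and the difference of 0.33 (standard error 0.14, 95% interval 0.01 to 0.65) had a limma adjusted p of 0.117. It was 0.19 without shock replicate 1, and 0.20 on MAS5 values (adjusted p = 0.494). The other (1441778_at, positions 93206096 to 93206537), at the 3' side, had 7.63, 7.48 and 7.57 in shock and 7.11, 7.04 and 7.15 in female. Here the arrays of each group lay close together and well apart from the other group, and the difference of 0.46 (standard error 0.10) passed with a limma adjusted p of 0.0152. Leaving out 1 array at a time kept the call in 4 of 6 fits, and it was lost without shock replicate 1 (adjusted p = 0.0782) and without shock replicate 3 (adjusted p = 0.0596). It did not hold on MAS5 values. There the intensities of this probe set were 267, 258 and 312 in shock and 297, 326 and 270 in female, mixed between the groups, with a difference of -0.09 (adjusted p = 0.732). Which of the RMA and MAS5 values of this probe set is nearer to the transcript level cannot be told from the files.

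**Figure D1:**
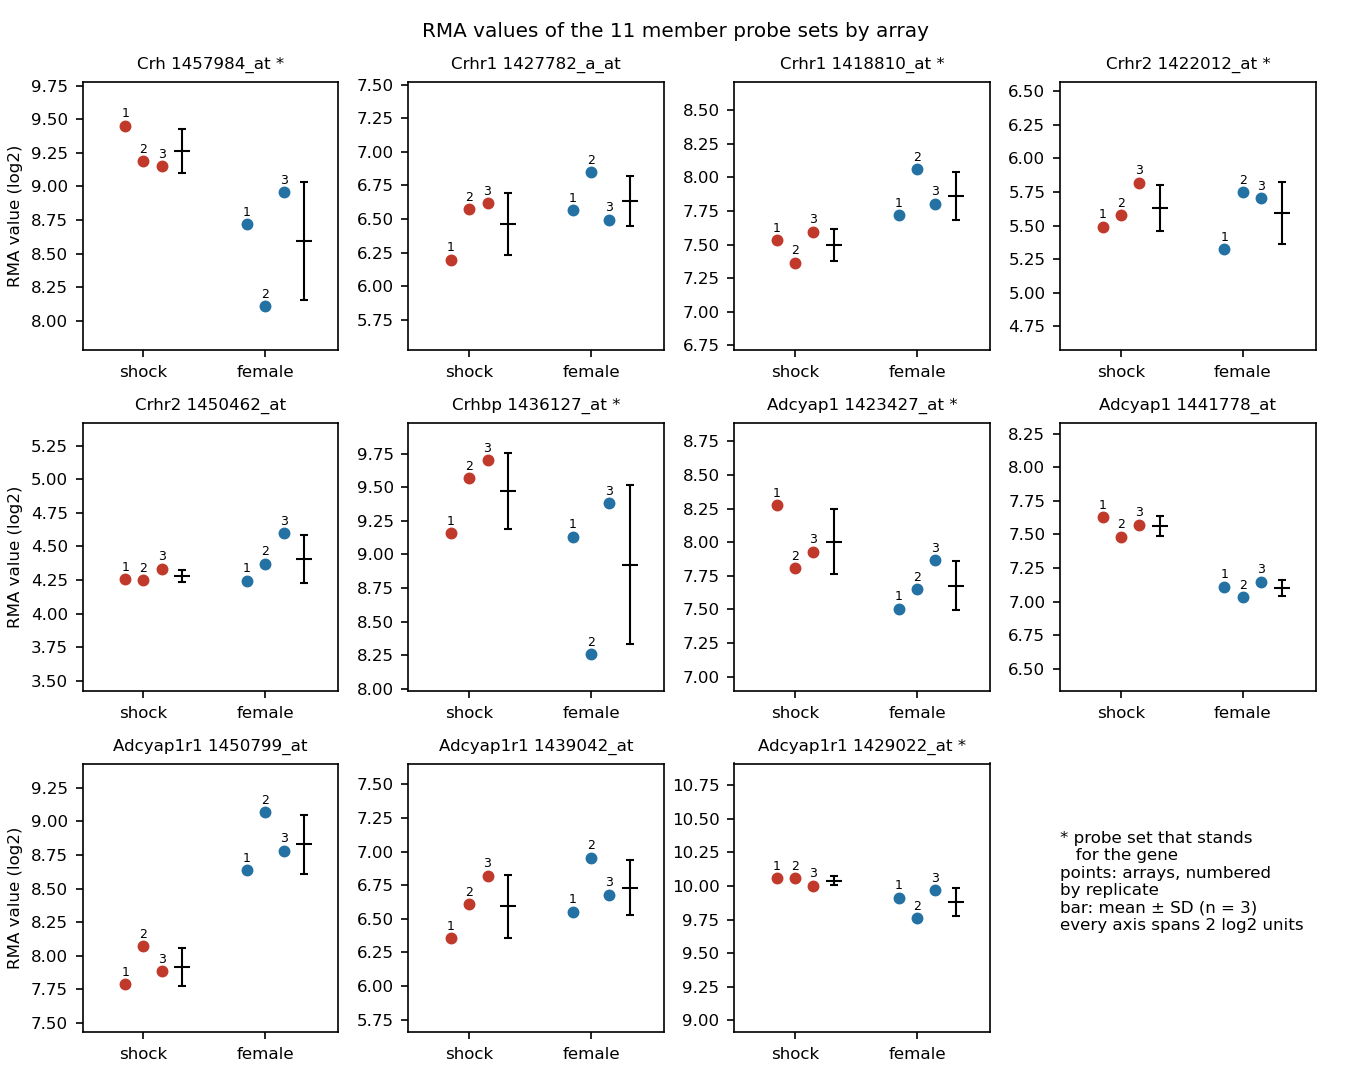
RMA value (log2) of each of the 11 probe sets of the CRH and PACAP genes on the 6 arrays, with shock in red, female in blue, replicate numbers above the points, and the mean ± SD (n = 3) beside them. Shock lies wholly above female for Crh, Adcyap1 1441778_at and the brightest probe set of Adcyap1r1. Female lies wholly above shock for Adcyap1r1 1450799_at and the brighter probe set of Crhr1. The groups do not overlap at 47.7% of all tested probe sets. Female replicate 2 is the lowest array for Crh, Crhbp, Adcyap1 1441778_at and the brightest probe set of Adcyap1r1.

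Among the receptors, Crhr1, the main CRH receptor of the forebrain, had the higher mean in female. Its representative (1418810_at, chromosome 11, positions 104132815 to 104175523, plus strand) had RMA values of 7.53, 7.37 and 7.60 in shock and 7.72, 8.06 and 7.81 in female. The groups did not overlap, by a gap of 0.12, and the difference of -0.36 (standard error 0.12, 95% interval -0.63 to -0.10) missed the threshold with a limma adjusted p of 0.0560. It passed in 1 of 6 fits with an array left out, at -0.43 without female replicate 1 (adjusted p = 0.0400). Without female replicate 2 it was -0.26 (adjusted p = 0.0847). Adjusting for the arrays' 5' to 3' signal left -0.19 (adjusted p = 0.759). The other probe set (1427782_a_at, positions 104172910 to 104174408) had 6.20, 6.57 and 6.62 in shock and 6.57, 6.85 and 6.50 in female. Those groups overlapped, with a difference of -0.17 and an adjusted p of 0.376. On MAS5 values the intensities of the representative were 145, 291 and 185 in shock and 189, 369 and 200 in female, which overlapped (difference -0.26, adjusted p = 0.614).

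Crhr2, the second CRH receptor, which binds the urocortins with high affinity, was dim. Both its probe sets (chromosome 6, minus strand, with the same deposited positions, 55090047 to 55133014) lay below the filter and were read from the fit without it. The brighter one (1422012_at) had RMA values of 5.49, 5.58 and 5.82 in shock and 5.32, 5.75 and 5.70 in female, fully mixed, with a difference of 0.037 (95% interval -0.27 to 0.34, limma adjusted p = 0.884). The other (1450462_at) had means of 4.28 in shock and 4.41 in female, with a difference of -0.13 (adjusted p = 0.489). For 1422012_at, a difference of either sign within its 95% interval remains compatible with the values of these arrays.

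Adcyap1r1, the PACAP receptor gene, passed the test at 1 of its 3 probe sets, all on chromosome 6, plus strand. The most 5' one (1450799_at, positions 55451979 to 55497396) had RMA values of 7.79, 8.07 and 7.89 in shock and 8.64, 9.07 and 8.78 in female. Every female array lay above every shock array by at least 0.57, and the difference of -0.91, a 1.88-fold higher level in female, passed the test (standard error 0.13, limma adjusted p = 0.00556). Leaving out 1 array at a time kept this call in 6 of 6 fits (-1.01 to -0.79) and on MAS5 values, where the intensities were 409, 356 and 299 in shock and 538, 672 and 700 in female (difference -0.82, adjusted p = 0.0476). The middle probe set (1439042_at, positions 55497388 to 55498939) had 6.35, 6.61 and 6.82 in shock and 6.55, 6.96 and 6.68 in female, with overlap and a difference of -0.14 (adjusted p = 0.504). The most 3' one (1429022_at, positions 55499223 to 55501455), which is the brightest and represents the gene, had 10.06, 10.06 and 10.00 in shock and 9.91, 9.76 and 9.97 in female. Its groups were apart by a gap of 0.034 with shock higher, and its difference of 0.16 (standard error 0.10, 95% interval -0.06 to 0.38) did not pass (adjusted p = 0.255). It was 0.37 on MAS5 values, with groups that did not overlap (adjusted p = 0.241), and 0.099 without female replicate 2. The largest difference found among the 9 tested probe sets of these genes therefore belongs to a probe set that the representative rule passes over, and its sign is opposite to that of the representative.

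The gap between the 5' and 3' probe sets of Adcyap1r1, whose deposited 3' ends lie 4059 bases apart, was set against that of other genes. Probe sets of a gene were ordered by their deposited 3' ends, and all distances are between these ends. The other genes could have probe sets 500 to 20000 bases apart and were not matched on this distance. On each array the 5' value minus the 3' value was -2.27, -1.99 and -2.11 in shock and -1.28, -0.69 and -1.19 in female (log2), with no overlap. The shift between the groups was -1.07. Over the 2784 other genes that could be read this way the median shift was -0.28 (quartiles -0.52 and -0.03), 77.6% of them had a shift below 0, and 0.826% lay lower than Adcyap1r1. The median 5' minus 3' signal of an array, over those genes, was -0.97, -0.82 and -0.89 in shock and -0.71, -0.46 and -0.73 in female, so the 5' signal was relatively higher in every female array and highest in female replicate 2. In Adcyap1, with 3' ends 730 bases apart, the shift was -0.13, and in Crhr1, with 3' ends 1115 bases apart, it was 0.19. Both had overlapping groups. The deposited positions of Crhr1 1427782_a_at lie within those of 1418810_at. The part of transcript coverage in the Adcyap1r1 shift was not tested.

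**Figure D2:**
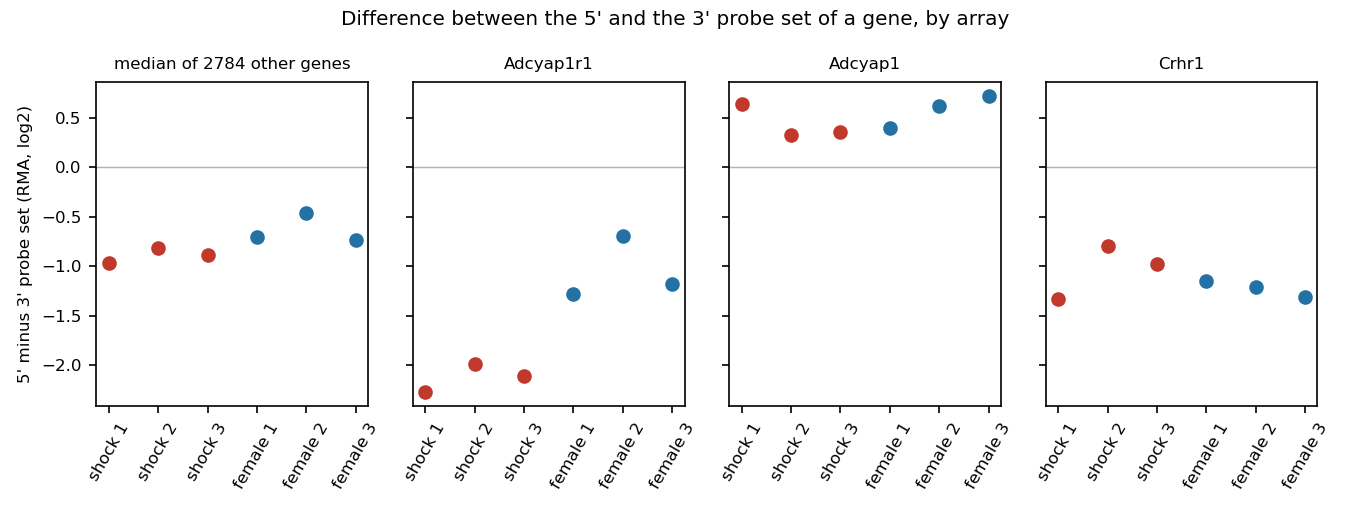
Difference between the most 5' and the most 3' probe set of a gene (RMA, log2) on each array, shock in red and female in blue, for the median of 2784 other genes and for the 3 genes of these systems with separate probe sets. For Adcyap1r1 the shock arrays lie between -2.27 and -1.99 and the female arrays between -1.28 and -0.69, while the arrays of the groups are mixed for Adcyap1 and Crhr1.

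Of the 9 tested probe sets of these genes, 3 passed, Crh and Adcyap1 1441778_at higher in shock and Adcyap1r1 1450799_at higher in female, against 20.8% of all tested probe sets. The groups did not overlap at 5 of the 9, against 47.7% of all tested probe sets. Taking 1 probe set for each gene, 1 of 5 tested genes passed (Crh), against 20.0% of 13203 tested genes (10.6% higher in shock and 9.40% higher in female). These shares are near the background, and the list as a whole does not stand out by its count. On MAS5 values as log2(value + 16), Adcyap1r1 1450799_at was the 1 of the 9 that passed, against 2.01% of all tested probe sets, and as log2(value + 1) it did not pass (adjusted p = 0.0603, background 1.03%). Without the filter 10.9% of all probe sets passed. Leaving out shock replicate 1, 2 or 3 brought the share to 1.19%, 5.78% or 4.86%, and leaving out female replicate 1, 2 or 3 to 25.0%, 20.6% or 13.4%, so calls lost without a shock array were lost together with most calls of the series. The array's 5' to 3' signal was also entered as a covariate. It does not overlap between the groups, so such a fit separates a group difference poorly from a difference in this signal. With it 0.00370% of all tested probe sets passed, no probe set of these genes among them. The difference was then -0.11 for Crhbp, 0.33 for Adcyap1 1441778_at (adjusted p = 0.429) and -0.53 for Adcyap1r1 1450799_at (adjusted p = 0.239).

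**Figure D3:**
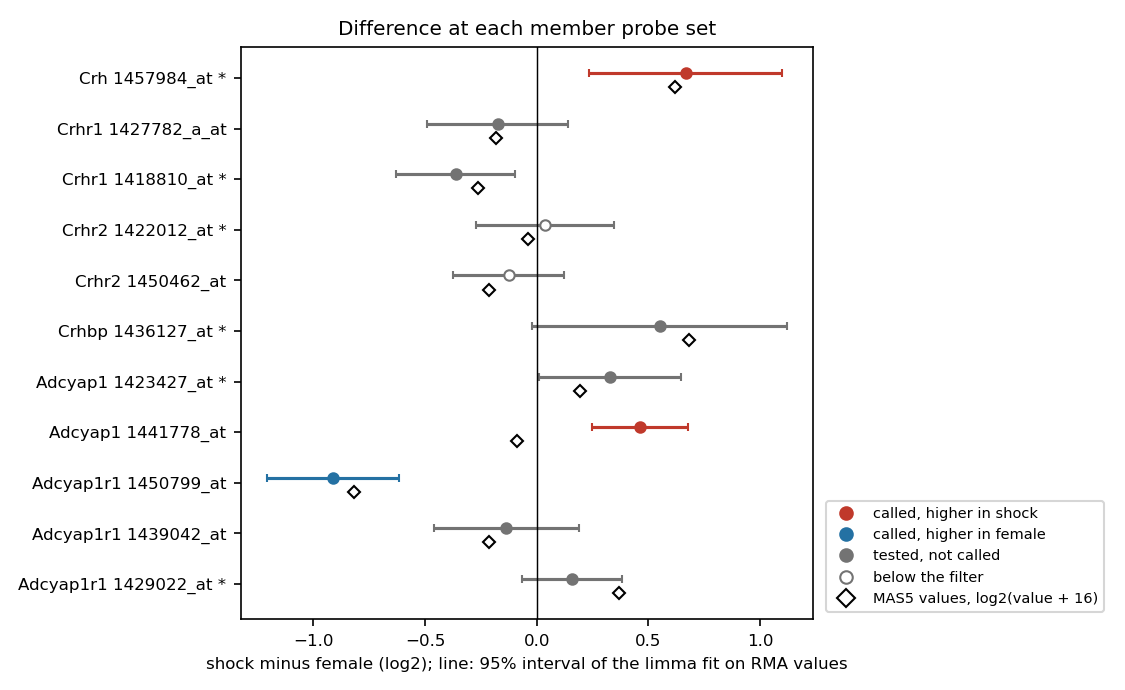
Shock minus female (log2) for the 11 probe sets, with circles and 95% intervals from limma on RMA values and diamonds for MAS5 values as log2(value + 16). Red and blue circles are calls at an adjusted p under 0.05 (Crh at 0.67, Adcyap1 1441778_at at 0.46, Adcyap1r1 1450799_at at -0.91), and the MAS5 diamond of Adcyap1 1441778_at lies at -0.09, outside its RMA interval.

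Markers of interneurons and of central amygdala neurons were called about as often as other genes. Crh is known as a transcript of central amygdala neurons and of some interneurons, and Crhbp of interneurons. Of 15 interneuron markers tested, 3 were higher in shock, 1 was higher in female and 11 did not pass (20.0% of all tested genes passed). Their median difference was 0.07 (0.06 for all tested genes), with a mean RMA level of 9.95 to 10.15 in shock and 9.79 to 10.08 in female. The 3 higher in shock were Vip (0.86), the vasoactive intestinal peptide gene, Gad1 (0.39, and -0.42 at another probe set), which encodes a GABA-synthesising enzyme, and the serotonin receptor gene Htr3a (0.72). The 1 higher in female was the parvalbumin gene Pvalb (-0.69). Of 12 central amygdala markers tested, 2 were higher in shock and 10 did not pass, again near 20.0%. The 2 were the neurotensin gene Nts (0.84) and the transcription factor gene Foxp2 (0.43, with other probe sets from -0.22 to 0.69). The largest difference of this list was towards female, in Prkcd (-1.03, limma adjusted p = 0.0598), which was at 0.086 with the 5' to 3' covariate. The median of the list was 0.10, with a mean level of 8.89 to 9.02 in shock and 8.71 to 9.01 in female. Of 11 projection neuron markers tested, 3 passed towards female and 1 towards shock (9.40% and 10.6% of all tested genes). The 3 included the vesicular glutamate transporter gene Slc17a7 (-0.98), and the 1 towards shock was Rspo2 (0.95). Their mean level over the list was 9.52 to 9.69 in shock and 9.31 to 9.80 in female. The mean level of markers was higher in every female array for oligodendrocytes (9.64 to 9.89 in shock and 10.00 to 10.57 in female), microglia (7.06 to 7.16 and 7.31 to 7.73) and endothelial and mural cells (7.73 to 7.80 and 7.99 to 8.30). Of these, 3 of 10, 4 of 8 and 5 of 9 tested markers passed, all towards female (9.40% of all tested genes). Of 10 astrocyte markers tested 3 also passed towards female, and of 8 striatal markers tested 1 passed in each direction. The part of any of these cell types in the differences of Crh, Adcyap1 and Adcyap1r1 was not tested.

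**Figure D4:**
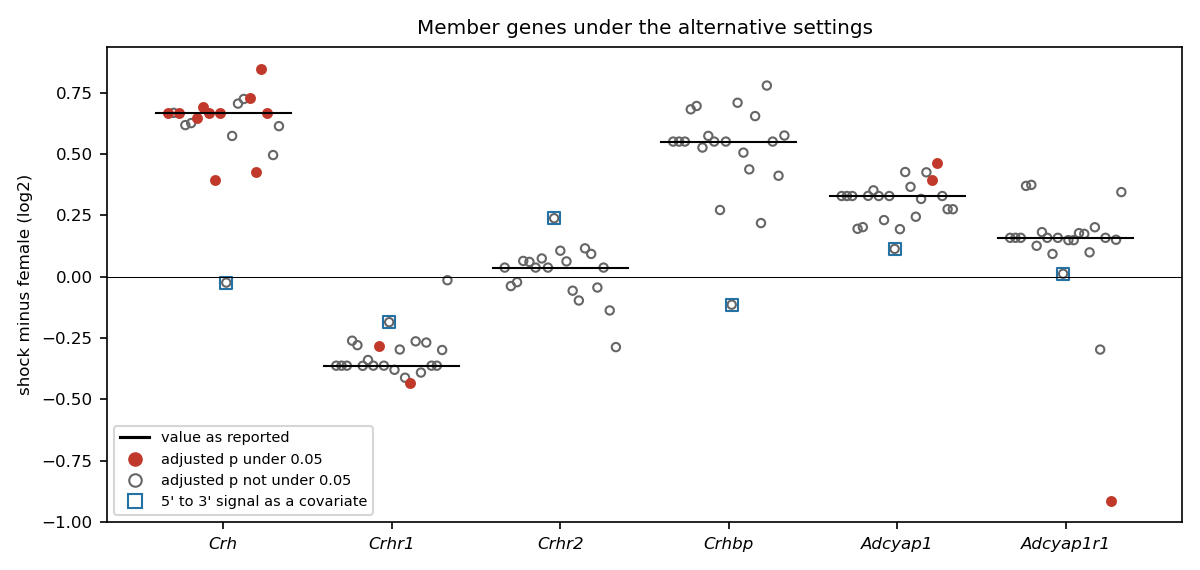
Shock minus female (log2) of the probe set that stands for each of the 6 genes, under the reported fit (line) and each alternative setting (circles), with filled circles where the adjusted p is under 0.05 and a square for the fit with the 5' to 3' covariate. Crh stays between 0.39 and 0.85 under the other settings and lies at -0.024 with the covariate, and the filled circle of Adcyap1r1 at -0.91 is its 5' probe set.

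The genes whose values ran closest to 5 of the 6 genes over the 6 arrays were listed by Pearson correlation among 11547 named genes, as a description of arrays that share their groups, their 5' to 3' signal and female replicate 2. For Crh they were Gcap8, Naa15 and Usp30, at 0.998 to 0.999, and 728 genes lay above 0.95, so that closeness to Crh is common here. For Crhbp they were Ubl7, Cops3 and Nudt2 (256 genes above 0.95). For Adcyap1 they were Skap2, Wdr78 and Mccc1 (26 genes above 0.95). Crhr1 ran closest to Fads6, Gareml and Lage3 (201 genes above 0.95). Crhr2, whose probe set lay below the filter at 5.32 to 5.82 with the groups mixed, had few close genes. There were 6 above 0.95, led by Slc32a1, the vesicular GABA transporter gene.

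Related peptides and receptors were called in both directions, about as often as other genes (20.0% of all tested genes passed). Of 27 listed genes 12 were tested, and 2 passed towards shock, 1 towards female and 9 in neither direction, with a median difference of 0.00 against 0.06 for all tested genes. The urocortin genes Ucn, Ucn2 and Ucn3, whose peptides bind the CRH receptors, lay below the filter. Vip, whose peptide shares receptors with PACAP, had an RMA value of 9.53 ± 0.37 in shock and 8.67 ± 0.28 in female (SD, n = 3), a difference of 0.86 (limma adjusted p = 0.0184). Its receptor genes, which PACAP also uses, were at 0.14 (Vipr1) and 0.17 (Vipr2) and did not pass. Calcrl, a receptor of the calcitonin gene-related peptide family, was higher in shock by 0.85 (adjusted p = 0.0367), but was at -0.0063 with the 5' to 3' covariate. Ramp1, the accessory protein that gives this receptor its ligand, was higher in female at -0.80 (adjusted p = 0.00401), with another probe set at -0.073.

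Genes that process and store peptides were likewise called near the background of 20.0%. Of 22 tested, 3 passed towards shock and 2 towards female, and 17 did not, with a median of 0.16 that was 0.098 without female replicate 2 and -0.00062 with the 5' to 3' covariate. The precursor-cleaving protease gene Pcsk5 was higher in shock by 0.55, the carboxypeptidase gene Cpd by 0.67 and the dense-core vesicle priming gene Cadps2 by 0.48, whereas Pcsk1n, which encodes an inhibitor of the convertase PCSK1, was at -1.04 and the vesicle GTPase gene Rab3a at -0.79. The convertase genes that act on many neuropeptide precursors, Pcsk1 (0.16) and Pcsk2 (0.23), and the carboxypeptidase gene Cpe (0.085) did not pass. The other 3 probe sets of Pcsk2 ran from -0.27 to 0.66, and 2 of them passed towards shock. Other probe sets of Cpd ran from -0.26 to 0.22, those of Pcsk5 from 0.0023 to 0.29, and that of Rab3a was at 0.031. When single arrays were left out, Pcsk1n was called in 6 of 6 fits and Cadps2 in 2.

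Downstream of the receptors, 30 genes of G protein signalling to cyclic AMP and CREB were tested, and 3 passed towards shock, 4 towards female and 23 in neither direction, again near 20.0%. The median of 0.14 was 0.088 without female replicate 2, 0.048 on MAS5 values and -0.046 with the covariate. The regulatory subunit gene of protein kinase A Prkar2b (0.56), the adenylyl cyclase gene Adcy3 (0.56) and the G protein gene Gnaq (0.48) were higher in shock. Adcy3 was at 0.060 on MAS5 values, had other probe sets from -0.25 to 0.29 and was called in 1 of 6 fits with an array left out. Gnaq was at 0.016 with the covariate, had other probe sets from -0.14 to 0.41 and was called in 2 of 6, and Prkar2b had others from -0.021 to 0.57 and was called in 3 of 6. The 3 genes of the CREB-regulated transcription coactivators were all higher in female at the probe set that stands for each. Crtc1 was at -0.68 (adjusted p = 0.00495), Crtc3 at -0.48 and Crtc2 at -0.41. Other probe sets ran from -1.04 to -0.16 for Crtc1 and were at -0.048 for Crtc3 and -0.31 for Crtc2. With the covariate Crtc1 was at -0.67, Crtc3 at -0.23 and Crtc2 at -0.17. The catalytic subunit gene Prkaca was also higher in female (-0.34, with another probe set at 0.097). When single arrays were left out, Crtc1 was called in 6 of 6 fits, Crtc3 in 3 and Crtc2 in 1. Creb1 itself (0.20, others -0.22 to 0.33) and Gnas (0.042, others -0.74 to 0.11), which encodes the stimulatory G protein of these receptors, did not pass. Of 12 genes of receptor desensitisation, 1 passed towards shock (the scaffold gene Magi2, 0.49), 2 towards female and 9 in neither direction, near the same 20.0% (median 0.060). The 2 were the receptor kinase gene Adrbk1 (-0.73, and -0.59 at another probe set) and the arrestin gene Arrb1 (-0.37). For Magi2 the value with the 5' to 3' covariate was -0.0024, and its other probe set was at -0.15.

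**Figure D5:**
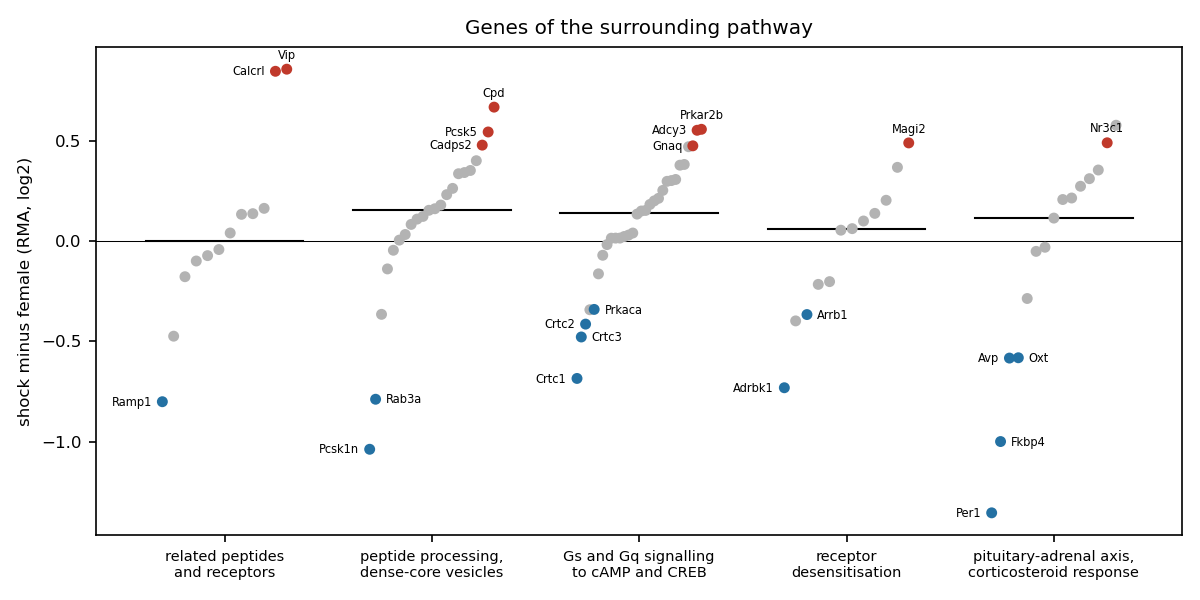
Shock minus female (RMA, log2) of each tested gene in 5 lists around the CRH and PACAP systems, with calls higher in shock in red, calls higher in female in blue, other genes in grey and a line at each list's median. Every list holds calls in both directions, and the medians lie between 0.00 and 0.16.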

How the data were processed

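Arrays of 6 RNA samples (3 shock, 3 female) were each deposited as RMA and as MAS5 values. RMA values are log2 and MAS5 values are linear intensity, both deposited by the authors, per the labels. They also deposited a table for each, with group averages in log2, a signed fold of female against shock (a score) and an ANOVA p-value with its FDR, per the file headers. The sources used here do not give software versions or the genome build.

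Of 45101 probe sets, 64 controls were left out. Shock minus female was fitted on RMA values with limma 3.58.1 in R 4.3.3 (lmFit, eBayes, group as the only term) on 27022 probe sets whose mean lay above the 40th percentile. P-values are 2-sided, with Benjamini-Hochberg adjustment across those probe sets. An adjusted p not credited to the authors comes from limma. MAS5 values entered as log2(value + 16), which understates the change of dim probe sets. An _x_at probe set would represent a gene only where there was no other. The exact permutation test cannot go below 0.1 with 3 against 3 arrays and is not given. The labels do not say whether pools are separate mice, so every p measures the spread between arrays. The 5' to 3' signal used genes with probe sets whose deposited 3' ends lay 500 to 20000 bases apart, the 6 genes left out.

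Named genes are the 6 genes, up to 3 called genes of each list in each direction, and the 3 closest genes of each, which for Adcyap1r1 are not reported here. Crtc2, Oxt and the listed genes that did not pass, which fall outside this, were added after their values were seen. The members and lists were chosen with earlier results of these data known. Of the listed genes, Glp2r, Atf1 and Etv1 had no probe set of their own symbol. The fit was tested on simulated data.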

Additional observations from a re-analysis of the deposited data

How the results depend on the processing

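The count of probe sets that differed between shock and female, 5614 in the reported fit, was 543 on MAS5 values as log2(value + 16), 277 as log2(value + 1), 8752 with array weights, 1 with the 5' to 3' covariate, and 321 (without shock replicate 1) to 6756 (without female replicate 1) when 1 array was left out. Crh kept its direction but not its call without the filter (0.67, adjusted p = 0.0526), on MAS5 values (0.62 and 0.63 for the 2 pseudocounts) and in the authors' deposited RMA and MAS5 tables (0.50 and 0.61 as log2), where no FDR of any probe set lay under 0.0810 and 0.147, and turned with the covariate (-0.024). Leaving out 1 array gave 0.43 to 0.85 for Crh, -0.43 to -0.26 for Crhr1 and -0.10 to 0.12 for Crhr2. Crhr1 passed with array weights (-0.28, adjusted p = 0.0305) and, among the fits with 1 array left out, only without female replicate 1. It kept its sign but did not pass once the covariate was entered (-0.19). Crhr2, below the filter throughout, turned on MAS5 values (-0.038 and -0.022), as the mean of its probe sets (-0.044) and in the authors' deposited tables (-0.14 on RMA and -0.29 on MAS5). Crhbp turned with the covariate (-0.11). Adcyap1 passed as the mean of its probe sets (0.40) and at the probe set nearest the 3' end (0.46), and Adcyap1r1 turned as the mean of its probe sets (-0.30) and at its most variable one (-0.91). Except where a value follows from reading other probe sets, the cause was not tested. With the replicate number as a block 7120 probe sets differed, Crh stayed at 0.67 (adjusted p = 0.0206) and no call of the 6 genes changed. Deviations of same-numbered arrays correlated at 0.012, 0.21 and 0.15, and shock replicates 2 and 3, but not 1, correlated best with their own number. With 3 arrays in each group these values cannot settle whether the numbers pair the arrays. The number of arrays and the signal of Crhr2 limit what can be seen.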

Other observations

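Genes of the pituitary and adrenal axis and of the corticosteroid response, which CRH sets in motion, had calls in both directions. Of 15 tested, 1 passed towards shock, 4 towards female and 10 in neither direction (10.6% and 9.40% of all tested genes passed towards shock and female), with a median difference of 0.12 (0.06 for all tested genes) that was -0.12 without female replicate 2 and -0.13 on MAS5 values. The clock and corticosteroid-inducible gene Per1 had an RMA value of 7.41 ± 0.08 in shock and 8.76 ± 0.28 in female (SD, n = 3), a difference of -1.36 with a limma adjusted p of 0.00401, and was called in 6 of 6 fits with an array left out. Fkbp4, a co-chaperone of steroid receptors, was at 8.54 ± 0.17 in shock and 9.54 ± 0.22 in female (adjusted p = 0.00495), with a difference of -0.0022 at another probe set. The glucocorticoid receptor gene Nr3c1 was higher in shock by 0.49 (adjusted p = 0.0235), with other probe sets from -0.49 to 0.43. Fkbp5, Sgk1 and Tsc22d3, which corticosteroids induce in many cells, were at 0.21, 0.22 and -0.050 and did not pass, and another probe set of Fkbp5 was at -0.43.

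The vasopressin gene Avp (-0.58, adjusted p = 0.0141) and the oxytocin gene Oxt (-0.58, adjusted p = 0.0424) were higher in female, called in 4 and 1 of 6 fits with an array left out. Both are also among the hypothalamic markers, of which 6 of 10 were tested. The other 4 tested did not pass (9.40% of all tested genes passed towards female). Pmch, the melanin-concentrating hormone gene of the lateral hypothalamus, had a mean of 10.31 in shock and 9.70 in female and did not pass (adjusted p = 0.230).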
